A study of Homo sapiens with 4 samples.

Results

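The loci of 9 inflammatory cytokine and NF-kappaB genes were examined in DU145, an established human prostate cancer line from a metastasis to the brain: LIF, IL6, CXCL8, CXCL1, NFKBIA, TNFAIP3, SOCS3, BIRC3 and ICAM1. The members were the peaks of the DU145 H3K27ac and DU145 CTCF lists that shared at least 1 base with the hg19 interval of a gene widened by 50 kb on each side. This gave 97 of 50364 H3K27ac peaks and 32 of 36152 CTCF peaks. H3K27ac is acetylation of lysine 27 of histone H3, a mark of active promoters and enhancers, and CTCF is a zinc finger protein that binds insulators and the anchors of chromatin loops. The series holds 4 libraries: DU145 chromatin recovered with an H3K27ac antibody, DU145 chromatin recovered with a CTCF antibody, and input without antibody from DU145 and from LNCaP, a prostate cancer line from a lymph node metastasis. All cells were grown in the same serum-containing medium with no treatment named in the labels, and fixed with 1% formaldehyde. Each antibody has 1 library, so the spread between cultures is unknown and no test between groups was possible. The question these libraries were part of, by the series title, was which chromatin contacts RNA polymerase II is found at in prostate cancer.

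NF-kappaB is a family of transcription factors held in the cytoplasm by inhibitor proteins and released when cytokines or bacterial products activate the cell. Its target genes encode cytokines and chemokines, adhesion molecules, survival factors and also inhibitors that switch the pathway off again. Several of the secreted products, IL-6 and LIF among them, signal in turn through JAK kinases and STAT3, and SOCS3 limits that second pathway. Secretion of IL-6 and of CXCL8 protein is well known in androgen-independent prostate cancer lines.

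The promoters of 6 members are printed to show the sequences next to the peaks described in the following paragraphs: IL6, where the gene had no H3K27ac peak but CTCF summits around it, CXCL8 and CXCL1, with 1 H3K27ac peak of fold 3.71 or 4.91 at the gene, and NFKBIA, TNFAIP3 and SOCS3, with folds of 11.5 or more at the start and a CTCF summit at or near it. ICAM1, which shares that arrangement, is described with its values only. RefSeq promoter sequences of build GRCh38.p14 were found for 8 of the 9 genes, in 9 entries. SOCS3 had 2 entries: the first is printed, and the second held no match to any searched motif. Matches are counted by gene among the members and by entry among all promoters. Each line gives the 250 bases before the start, 5′ to 3′ on the gene's strand, and capitals mark every match to a searched motif.
IL6: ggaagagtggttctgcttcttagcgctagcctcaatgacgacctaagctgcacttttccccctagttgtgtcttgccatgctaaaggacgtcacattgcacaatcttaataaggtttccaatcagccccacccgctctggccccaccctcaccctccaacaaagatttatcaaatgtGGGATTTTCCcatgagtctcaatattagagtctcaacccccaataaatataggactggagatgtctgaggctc
CXCL8: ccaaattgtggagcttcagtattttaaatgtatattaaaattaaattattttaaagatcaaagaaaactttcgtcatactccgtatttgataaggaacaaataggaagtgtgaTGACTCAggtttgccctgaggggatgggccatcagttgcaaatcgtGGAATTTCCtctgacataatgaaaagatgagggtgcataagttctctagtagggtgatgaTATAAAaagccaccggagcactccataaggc
CXCL1: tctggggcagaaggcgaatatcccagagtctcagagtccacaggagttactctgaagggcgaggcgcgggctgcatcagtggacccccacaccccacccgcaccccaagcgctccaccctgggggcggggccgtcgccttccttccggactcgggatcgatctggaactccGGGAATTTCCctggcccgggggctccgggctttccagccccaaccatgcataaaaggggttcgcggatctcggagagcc
NFKBIA: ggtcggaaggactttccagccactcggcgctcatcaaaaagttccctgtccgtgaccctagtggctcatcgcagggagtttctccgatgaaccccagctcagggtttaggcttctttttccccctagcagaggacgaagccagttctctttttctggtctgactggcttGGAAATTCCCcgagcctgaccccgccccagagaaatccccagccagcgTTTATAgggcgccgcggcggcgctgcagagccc
TNFAIP3: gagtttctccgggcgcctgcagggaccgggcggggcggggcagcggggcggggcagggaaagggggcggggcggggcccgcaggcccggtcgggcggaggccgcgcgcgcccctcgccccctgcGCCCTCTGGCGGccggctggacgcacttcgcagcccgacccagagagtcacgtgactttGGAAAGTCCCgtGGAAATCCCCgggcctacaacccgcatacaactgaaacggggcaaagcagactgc
SOCS3: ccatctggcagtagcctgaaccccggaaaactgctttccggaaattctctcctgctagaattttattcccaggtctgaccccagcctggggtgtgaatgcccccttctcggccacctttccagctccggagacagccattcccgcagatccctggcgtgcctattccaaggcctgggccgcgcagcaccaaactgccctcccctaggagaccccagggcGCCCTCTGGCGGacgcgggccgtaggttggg
The motifs were searched on both strands. NF-kappaB sites were searched as 2 strings of letters, GGGA or GGGG followed by any base, TT, any base and CC, and at least 1 of them occurred in 2.64% of 35116 RefSeq promoter entries. They occurred in 5 of the 8 members with a promoter: IL6, CXCL1, NFKBIA, TNFAIP3 (1 match of each string) and BIRC3. A shorter string, GGAATTTCC, was added after the sequences were seen. It occurred in CXCL8 and ICAM1 and overlapped the longer matches in CXCL1 and NFKBIA, and it was present in 0.413% of all entries. The genes were chosen as NF-kappaB genes, so these matches are a description of the set. The AP-1 string TGANTCA, which 6.57% of entries held, had a match in CXCL8 only among the 8, and the STAT string TTCNNNGAA, also in 6.57%, had a match in ICAM1 only. TATAAA, in 10.7% of entries on either strand, was found on the gene's strand before CXCL8 and ICAM1. Before NFKBIA it lay on the opposite strand, so the gene's strand reads TTTATA.

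A CTCF core string (CCA, any 2 bases, AG, any 2 bases, GGC), present in 2.02% of entries, had no match in the 8 promoters. A wider string with any base in place of its A in CCA, added after the sequences were seen and present in 8.90% of entries, matched TNFAIP3, SOCS3 and ICAM1. TNFAIP3 and SOCS3 carried the same 12 letters there, GCCCTCTGGCGG on the gene's strand, whose reverse complement holds the string. They lay 126 to 115 bases before the TNFAIP3 start and 31 to 20 bases before the start of the printed SOCS3 entry. A CTCF peak lay close to the start of both genes in DU145, as described with these genes. IL6 and NFKBIA also had a CTCF summit near the start edge, 0.825 kb upstream and 0.045 kb inside. The wider string had no match in the promoter of either. The promoters and the peaks are in different genome builds. A match and a peak could be compared only by distance from the gene start. The CTCF summits of SOCS3 and ICAM1 lay 1.03 and 1.73 kb upstream of the start edge, in peaks of 283 and 290 bases. Their matches lay 31 to 20 and 48 to 37 bases before the start, outside these peaks by this measure. At TNFAIP3 the summit lay 0.294 kb inside the edge, and an edge rounded to 1 kb cannot place the match. A match is not a measured site.

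Acetylation differed strongly between the 9 loci. The windows around LIF, ICAM1 and SOCS3 held 26, 25 and 24 H3K27ac peaks, and together 75 of the 97. The other 6 windows held 22 in all: 7 at NFKBIA, 6 at BIRC3, 5 at CXCL8, 2 at TNFAIP3, 1 at CXCL1 and 1 at IL6. The share of the window inside H3K27ac peaks was 43.6% at LIF, 20.4% at ICAM1 and 18.5% at SOCS3. It was 8.21% at NFKBIA, 4.83% at CXCL8, 3.52% at BIRC3, 0.997% at TNFAIP3, 0.725% at CXCL1 and 0.413% at IL6. The order by number of peaks and the order by share of bases differed only in the places of BIRC3 and CXCL8. Starts of other genes inside the windows were not mapped, as that needs an hg19 annotation. The counts and shares are therefore of the window and may include peaks of neighbouring genes.

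**Figure D1:**
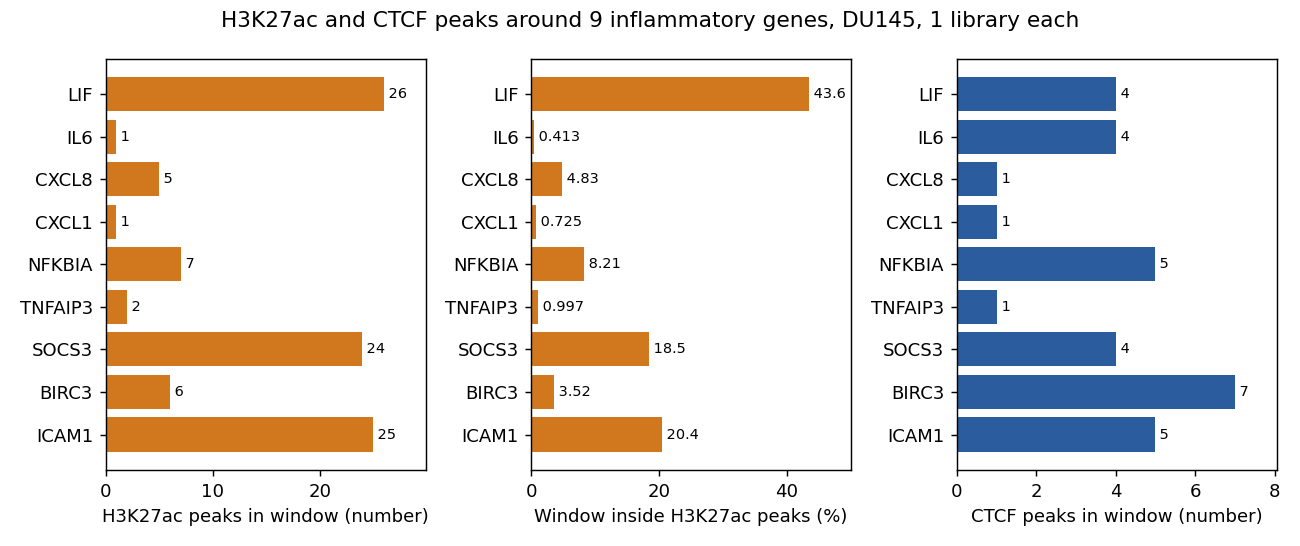
Number of H3K27ac peaks (left), share of the window inside H3K27ac peaks in percent (middle) and number of CTCF peaks (right) in the windows of the 9 genes, in 1 library for each antibody. LIF, ICAM1 and SOCS3 stand apart in H3K27ac, with 24 to 26 peaks, while CTCF peaks number 1 to 7 and are 4 at both LIF and IL6.

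All 9 windows held an H3K27ac peak and all 9 held a CTCF peak. When the assembled chromosomes were cut into 29482 tiles of 105 kb, about the size of a window, 37.6% of tiles held an H3K27ac peak and 54.4% a CTCF peak. Windows with 20 or more H3K27ac peaks were 3 of 9, against 0.987% of tiles. Windows with at most 1 were 2 of 9, against 73.3% of tiles. Windows with 4 or more CTCF peaks were 6 of 9, against 8.89% of tiles. The tiles include regions without genes and assembly gaps, and a comparison with windows around other genes was not made. The peaks in the windows were about as strong as the rest of each list. The median fold enrichment, the authors' own value of fragments at the summit over local background, was 4.55 in the windows and 4.55 over the whole H3K27ac list. It was 9.58 in the windows and 9.52 over the whole CTCF list. The strongest 10% of the H3K27ac list took in 10 of the 97 peaks, where the list as a whole has 10.0%, and the strongest 10% of the CTCF list took in 2 of the 32. At a −log10 q of at least 10 there were 40 of the 97 H3K27ac peaks, against 43.4% of the list, and 27 of the 32 CTCF peaks, against 79.8% of the list. Fragments at the summit, solved from the deposited values, ranged from 12 to 302 for H3K27ac (median 23) and from 15 to 183 for CTCF (median 53.5).

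**Figure D2:**
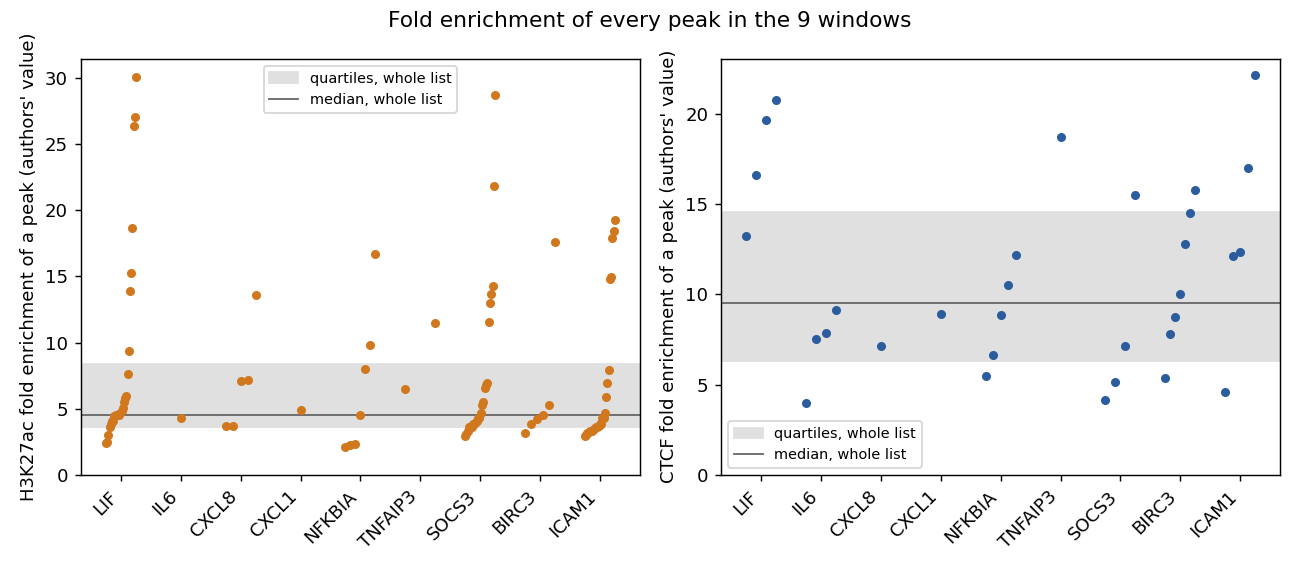
Fold enrichment of every peak in the 9 windows on linear axes, for H3K27ac (left) and CTCF (right), with the quartiles and the median of the whole list in grey. Most H3K27ac peaks lie near the list median of 4.55, and each of LIF, SOCS3 and ICAM1 adds a few peaks far above it, up to 30.1 at LIF.

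LIF encodes leukaemia inhibitory factor, a cytokine of the IL-6 family. Its locus had the most acetylation of the 9. Joining H3K27ac peaks up to 12.5 kb apart gave 18213 domains over the genome, and the domain over LIF, chr22:30585577-30659588, ranked 10 among them by a score, the fold multiplied by the width of each peak and added up. It spanned 74.0 kb with 25 peaks. The peak that reaches upstream from the start edge of the LIF interval, chr22:30642929-30654923, was 11995 bases wide, the 11th widest of the list. It had a fold of 26.4 from 128 fragments (exact Poisson 95% interval 107 to 152). Its summit lay 10.5 kb upstream of the start edge of the LIF interval. On the other side of the gene, chr22:30600114-30609954, with the highest fold of all 97 peaks (30.1, 146 fragments, interval 123 to 172), had its summit 40.3 kb downstream of that edge. Peaks of 9 kb or more make up 0.0854% of the H3K27ac list, and both lay here. The next strongest of the window, chr22:30589322-30592100, had a fold of 27.0 from 118 fragments. Inside the gene interval the acetylation was lower. The wide peak reaches 0.071 kb past the start edge. That edge is rounded to 1 kb, so whether the peak covers the start itself is not settled. The next peak into the gene, with its summit 0.419 kb from that edge, had a fold of 7.66. The others that touched the gene had 3.59 to 5.99. In gene order HORMAD2 lies below and OSM, another IL-6 family cytokine, above LIF, and which gene any of these peaks acts on was not measured.

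All 4 CTCF summits of the LIF window lay on the upstream side. The peak chr22:30651850-30652368 (fold 16.6, 90 fragments) had its summit inside the wide H3K27ac peak, 9.02 kb from the start edge. The peak chr22:30658678-30659193 (fold 20.8, 90 fragments, interval 72.4 to 111) lay 16.0 kb upstream in a break of 180 bases between the last 2 acetylated peaks of the domain. A further pair had folds of 19.6 and 13.2 and lay 40.0 and 40.9 kb upstream, in a break of 2956 bases between 2 weak H3K27ac peaks with folds of 2.48 and 4.55. No CTCF peak lay between the upstream peak at 9.02 kb and the lower end of the window, over the gene and the strong downstream peaks.

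IL6 encodes interleukin 6, and its locus was the reverse in acetylation with as many CTCF peaks as LIF. No H3K27ac peak touched the IL6 interval, which held for none of the other 8 genes. The only H3K27ac peak of the window, chr7:22757959-22758392, lay 8.81 kb upstream of the start edge, with a fold of 4.29 from 30 fragments and a −log10 q of 9.61. The 4 CTCF peaks sat close together around the gene, 1.59 and 0.825 kb upstream of the start edge, 1.27 kb inside and 5.56 kb downstream of it. Their folds were 3.97, 9.13, 7.84 and 7.54, from 15, 49, 34 and 32 fragments, all below the list median of 9.52. Each had the other 3 within 10 kb. Peaks with at least 3 CTCF neighbours at that distance were 5 of the 32, these 4 and 1 at NFKBIA, against 3.40% of the CTCF list. The stretch between the H3K27ac peaks on either side of these 4 summits was 99540 bases long. Just outside the window, 0.270 kb beyond its upper end, a CTCF peak had a fold of 17.5, higher than any of the 4 inside, and the nearest H3K27ac peaks outside lay 9.69 kb below the window with a fold of 5.63 and above it with a fold of 3.33.

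CXCL8 and CXCL1 encode chemokines that attract neutrophils, and each had 1 H3K27ac peak at the gene. The H3K27ac peak in CXCL8, chr4:74606876-74607293, had a fold of 3.71 from 16 fragments (interval 9.15 to 26.0), below the list median of 4.55. At CXCL1 the peak chr4:74734739-74735478 lay across the start edge with a fold of 4.91 from 23 fragments, just above that median, and it was the only H3K27ac peak of that window. Stronger acetylation lay upstream of CXCL8, at 35.3 kb (fold 13.6, 76 fragments), 31.8 kb (fold 7.15) and 13.8 kb (fold 7.09). Each window had 1 CTCF peak, upstream of the gene in both. It lay 10.5 kb from the CXCL8 start edge with a fold of 7.13 and 4.69 kb from the CXCL1 start edge with a fold of 8.90. The H3K27ac peak in CXCL8 and the one at CXCL1 were neighbours in the list, with 127445 bases and no other acetylated peak between them, and the CTCF peak upstream of CXCL1 lay in that stretch.

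**Figure D3:**
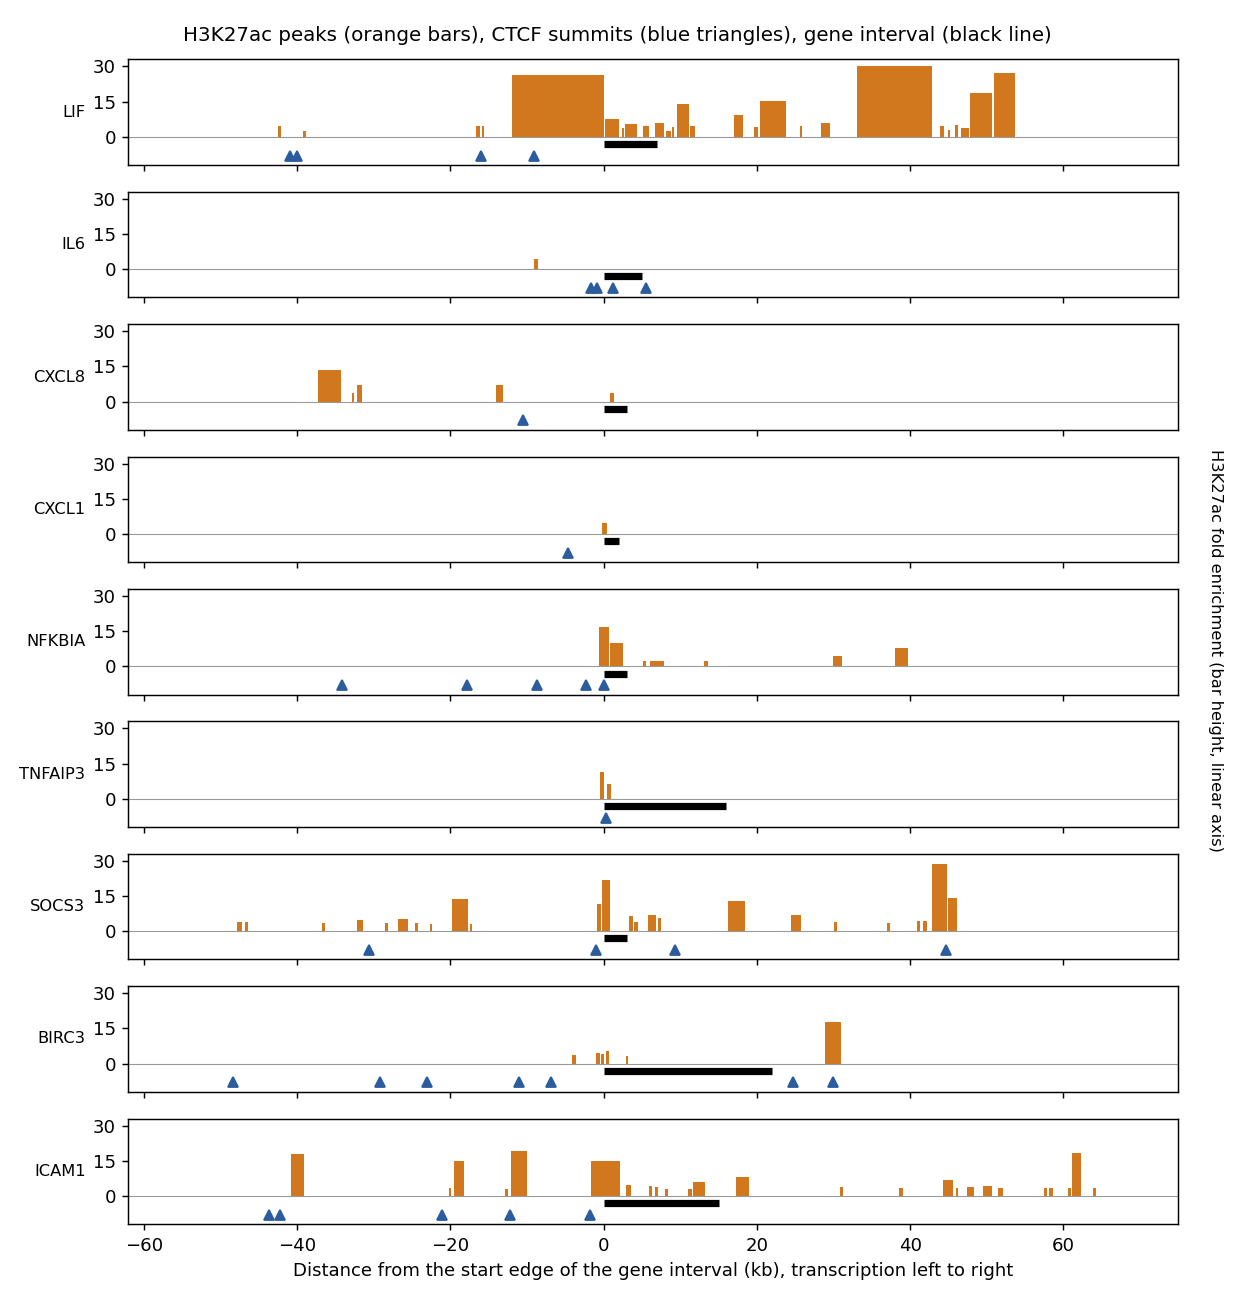
H3K27ac peaks (orange bars at their true width, height the fold enrichment on a linear axis), CTCF summits (blue triangles) and the gene interval (black line) by distance in kb from the start edge of each gene interval, with transcription from left to right. LIF is flanked by peaks 11995 and 9841 bases wide, the IL6 interval has no H3K27ac peak but 4 CTCF summits around it, and upstream of NFKBIA there are 4 CTCF summits and no H3K27ac peak beyond the start.

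Of the inhibitors, NFKBIA encodes IkappaB alpha, which holds NF-kappaB in the cytoplasm and is itself an NF-kappaB target. It had the most fragments of any peak in the windows. The peak over its start, chr14:35873232-35874569, held 302 fragments at the summit (interval 269 to 338) with a −log10 q of 251, rank 461 of the H3K27ac list, but its fold of 16.7 ranked only 5109. Next to it, inside the gene, chr14:35871503-35873134 had a fold of 9.85 from 139 fragments. Local background differed here from the other loci. Solved from the deposited values, it was 3.38 to 5.39 times the lowest of the list at the 7 H3K27ac peaks of the window and 3.60 to 8.24 times at the 5 CTCF peaks. At the other 8 loci it was at most 2.45 times for H3K27ac and 2.75 times for CTCF. A background of 2 times the lowest or more was found at 8 of the 97 H3K27ac peaks, 7 of them at NFKBIA, against 8.99% of the list, and at 6 of the 32 CTCF peaks, 5 of them at NFKBIA, against 18.4% of the list. It was not limited to the window: from 500 to 1000 kb away toward lower coordinates the median was 3.60 times for 41 H3K27ac peaks and 3.67 times for 9 CTCF peaks, while all of chromosome 14 had medians of 1.64 and 1.83. A high background lowers the fold of a peak for the same number of fragments, so folds at NFKBIA are not on a par with folds at the other loci. Copy number and open chromatin of the input were not tested.

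**Figure D4:**
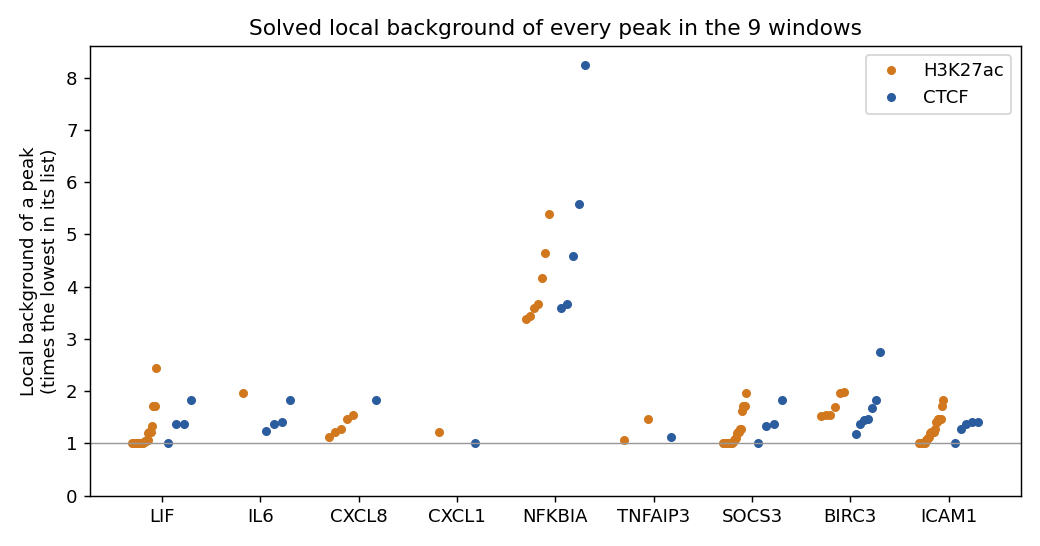
Local background of every peak in the 9 windows, solved from the deposited fold and −log10 p, as a multiple of the lowest background in its list (linear axis, orange H3K27ac, blue CTCF). All 12 NFKBIA peaks lie at 3.38 or higher, and the peaks at the other loci lie at 2.75 or lower.

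CTCF at NFKBIA was gathered on the upstream side. The peak chr14:35873759-35874067, with a fold of 5.47 from 53 fragments, had its summit 0.045 kb inside the start edge and within the strongest acetylated peak. A further 4 CTCF peaks lay 2.32, 8.65, 17.8 and 34.2 kb upstream, with folds of 10.5, 12.2, 8.83 and 6.64 from 151, 117, 183 and 79 fragments. These 4 lay in a stretch of 402960 bases without an H3K27ac peak, while all 7 H3K27ac peaks of the window lay at the start or on the gene's side of it. INSM2 is the next protein-coding gene on the upstream side and PSMA6 on the other.

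TNFAIP3 encodes A20, an enzyme that edits ubiquitin and shuts off NF-kappaB signalling. Its window had 3 peaks in all, and they lay together at the start. The H3K27ac peak chr6:138187554-138188092 had a fold of 11.5 from 49 fragments (interval 36.3 to 64.8), and chr6:138188384-138189001 had 6.53 from 36 fragments. The break between them was 291 bases long, and the CTCF peak chr6:138188139-138188423 had its summit in it, 90 bases from the nearer H3K27ac peak, and overlapped the second of the pair. Its fold was 18.7 from 70 fragments (interval 54.6 to 88.4), the fourth highest of the 32. The rest of the 116 kb window had no peak of either list.

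SOCS3 encodes a suppressor of JAK and STAT signalling that is induced by IL-6 and LIF. Its start carried a strong H3K27ac peak, chr17:76355173-76356253, with a fold of 21.8 from 96 fragments (interval 77.8 to 117), and a second one just upstream with a fold of 11.5 from 57 fragments. The CTCF peak chr17:76356881-76357163 (fold 15.5, 84 fragments) overlapped the end of that second peak, and its summit lay 117 bases outside it, 1.03 kb upstream of the start edge. Beyond this summit the next H3K27ac peak was reached only after a stretch of 16259 bases in all without acetylation, so the summit lay at the edge of a domain of 60.3 kb and 16 peaks that ranked 488 by score. The strongest peak of the window, chr17:76311149-76313140, had a fold of 28.7 from 121 fragments and lay 43.8 kb downstream of the start edge, where a weaker CTCF peak (fold 5.13, 21 fragments) had its summit inside it. The remaining 2 CTCF peaks of the window had folds of 7.14 and 4.12 and touched no H3K27ac peak.

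BIRC3 encodes cIAP2, a ubiquitin ligase that protects cells from death and is a target of NF-kappaB. It had the most CTCF peaks, 7. The 3 H3K27ac peaks that touched the interval had folds of 4.22, 5.31 and 3.18, from 24, 30 and 22 fragments, and 2 more just upstream had 3.85 and 4.55. The strong peak of the window, chr11:102216944-102219026, with a fold of 17.6 from 111 fragments, lay 30.1 kb from the start edge, past the end of the gene on the side of BIRC2, its neighbour and a related inhibitor of cell death. Whether it lies at the start of BIRC2 was not looked up, as that needs an hg19 annotation. Which gene it acts on was not measured. A CTCF peak with a fold of 14.5 from 73 fragments had its summit inside that peak, 29.9 kb from the start edge, and another with a fold of 15.8 lay at 24.7 kb, between the gene interval and that peak. The other 5 CTCF peaks lay 6.90 to 48.4 kb upstream with folds of 5.38 to 12.8. They were in a stretch of 133909 bases without acetylation.

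ICAM1 encodes an adhesion molecule that binds leukocyte integrins and is induced by NF-kappaB. The peak over its start, chr19:10380333-10384138, was 3806 bases wide with a fold of 14.8 from 83 fragments, and 6 weaker peaks with folds of 2.98 to 5.89 covered parts of the gene. The CTCF peak with the highest fold of the 32, chr19:10380138-10380427 (fold 22.1, 98 fragments, interval 79.6 to 119), touched the upstream end of this peak, and its summit lay 62 bases outside. The stretch without acetylation in which this summit lay was 8309 bases long. Farther upstream, 12.2 kb from the start edge, a CTCF peak with a fold of 12.1 had its summit in a break of 332 bases beside the strongest H3K27ac peak of the window, chr19:10369868-10372023 (fold 19.2, 108 fragments). The CTCF peak at 21.0 kb held 75 fragments, and its summit lay 873 bases from acetylation. All 5 CTCF peaks were upstream of ICAM1, and the 13 H3K27ac peaks past the gene interval had none among them. The domain over ICAM1 spanned 84.4 kb with 24 peaks and ranked 332. ICAM4 follows ICAM1 and MRPL4 precedes it in gene order, and which gene any of these peaks acts on was not measured.

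**Figure D5:**
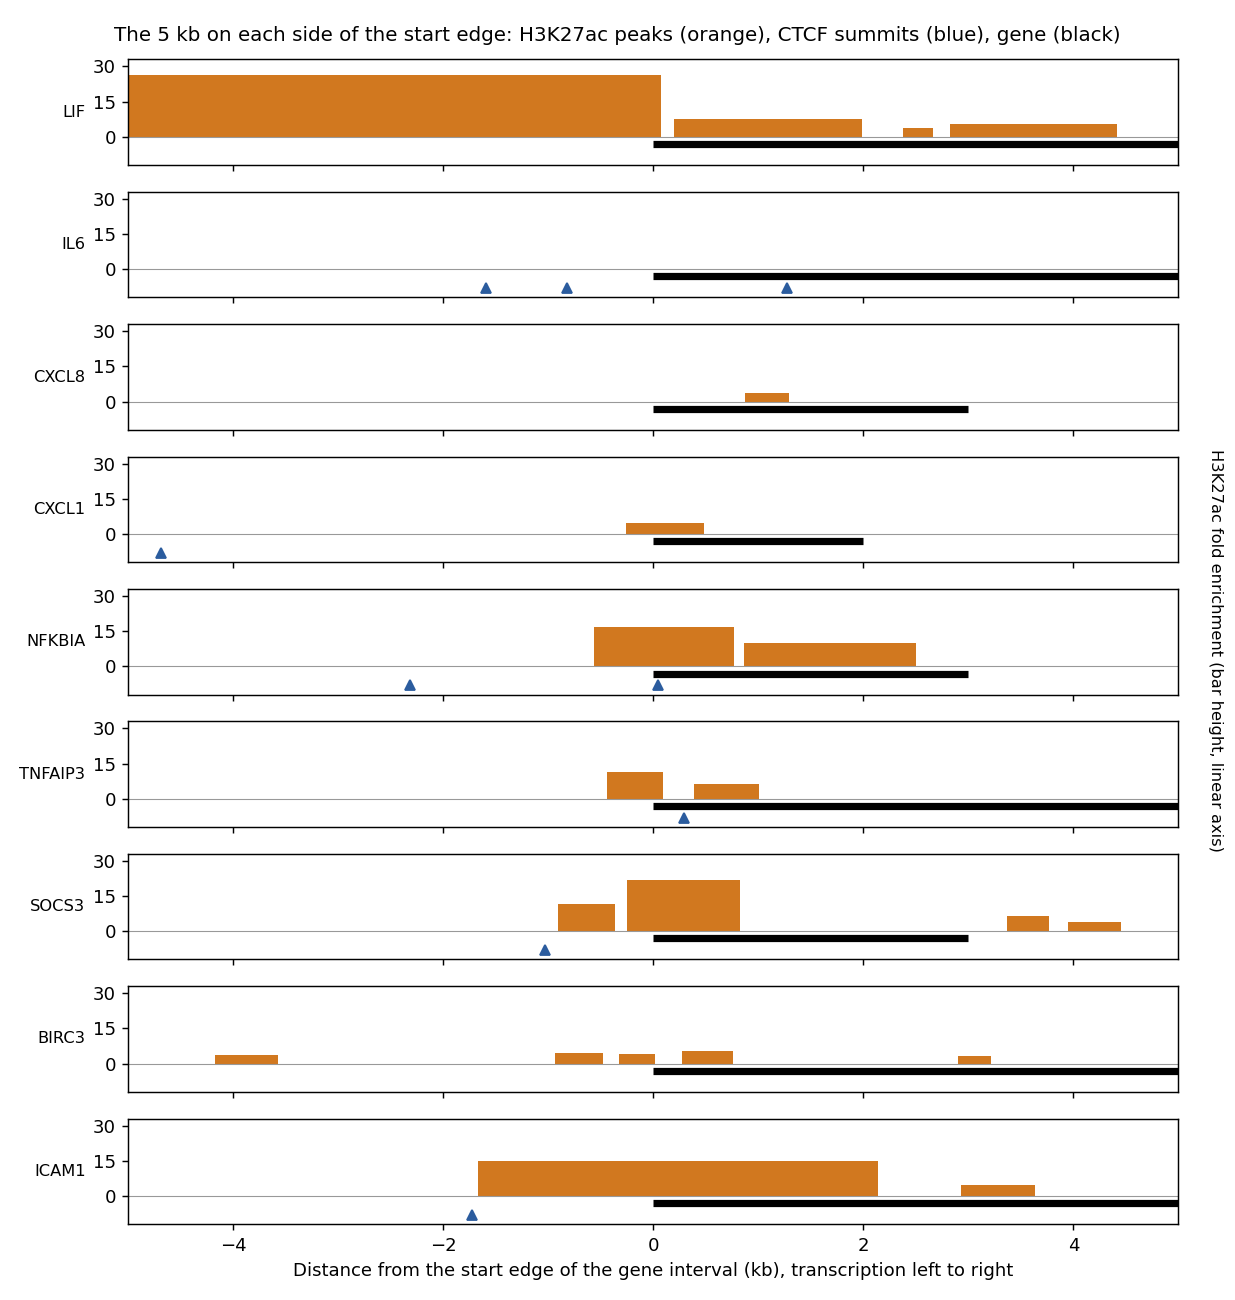
The 5 kb on each side of the start edge of each gene interval, drawn as H3K27ac peaks (orange, height the fold enrichment on a linear axis), CTCF summits (blue triangles) and the gene (black line). The summits at TNFAIP3, SOCS3 and ICAM1 lie 90, 117 and 62 bases outside an H3K27ac peak. At NFKBIA the summit at the start edge lies inside one, and another, 2.32 kb upstream, lies 1749 bases from one. CXCL1 has a summit 4.69 kb upstream, and IL6 has 3 summits and no H3K27ac peak in this range.

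Read across the loci, 8 of the 9 genes had an H3K27ac peak on the gene interval and an H3K27ac summit within 2 kb of its start edge, IL6 being the exception. The share of all genes with such a peak was not counted, as it needs an hg19 annotation. Whether the count is particular to these genes is therefore unknown. At 6 genes the H3K27ac peak whose summit lay nearest the start edge was at or above the list median of 4.55: SOCS3 (21.8), NFKBIA (16.7), ICAM1 (14.8), TNFAIP3 (11.5), LIF (7.66) and CXCL1 (4.91). At BIRC3, IL6 and CXCL8 it had 4.22, 4.29 and 3.71. The BIRC3 summit lay 0.165 kb upstream of the edge, and another, 0.482 kb inside it, had a fold of 5.31, above the median. An edge rounded to 1 kb cannot say which of them lies nearer the start. The order also depends on the measure at LIF. Another measure, the peak that covers or lies nearest the start edge, was added after the values were seen. By it LIF has the wide peak with a fold of 26.4 and comes first of the 9, followed by SOCS3 (21.8), NFKBIA (16.7), ICAM1 (14.8) and TNFAIP3 (11.5). The wide peak reaches only 0.071 kb past an edge rounded to 1 kb, so this first place is not settled. With 1 library these are an order of peak values, and the lower ones are not separated in fragments by counting error alone. The Poisson intervals overlap at CXCL8 (9.15 to 26.0), CXCL1 (14.6 to 34.5), BIRC3 (15.4 to 35.7) and IL6 (20.2 to 42.8). That of the LIF peak with a fold of 7.66 (21.1 to 44.0) overlaps them too. The interval of TNFAIP3 (36.3 to 64.8) overlaps those of IL6 and of this LIF peak. These intervals are of fragments, while the fold also depends on the local background, which differs between the peaks.

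A CTCF summit lay within 2 kb of the start edge at 5 genes: IL6, NFKBIA, TNFAIP3, SOCS3 and ICAM1. At the others the nearest was 4.69 kb (CXCL1), 6.90 kb (BIRC3), 9.02 kb (LIF) and 10.5 kb (CXCL8) away, upstream in each. The interval edges are rounded to 1 kb, which limits these distances. How many of all gene starts have a CTCF summit within 2 kb was not counted, so the 5 genes have no background to be set against. Acetylation was shared by 9 of the 32 CTCF peaks, 28.1% (Wilson 95% interval 15.6 to 45.4), against 14.2% of the whole CTCF list. In the other direction, 10 of the 97 H3K27ac peaks overlapped CTCF, 10.3% (interval 5.70 to 17.9), against 10.1% of the list. The 9 lay at LIF, NFKBIA, TNFAIP3, SOCS3, BIRC3 and ICAM1, and the windows of IL6, CXCL8 and CXCL1 had no overlap between the lists. An H3K27ac peak covered the summit at 4 of the 32, against 8.40% of the list. A further 8 lay outside but within 1 kb, against 11.1% of the list, and 3 lay in a break of up to 500 bases between acetylated peaks (LIF, TNFAIP3 and ICAM1), against 1.68% of the list. At the other end, 11 of the 32 summits were more than 5 kb from acetylation, at IL6, NFKBIA and BIRC3, against 71.1% of the list. The windows lie around genes, and 3 of them hold 75 of the 97 H3K27ac peaks, while the lists cover the whole genome. The shares of the windows and of the lists are therefore not from like regions. Neighbouring peaks of 1 library share their surroundings and depth, so these shares describe the 9 loci in these 2 libraries and were not tested. The Wilson intervals treat the peaks as independent and are not a test against the share of the list.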

How the data were processed

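Chromatin immunoprecipitation and sequencing of DU145 cells gave the 2 peak lists used. Bowtie, MACS2 and build hg19 are named in the submitters' processing notes, without versions or settings. The authors deposited, per peak, a summit, a fold enrichment (linear ratio to local background), a p-value and a q-value as −log10, and a score that was not used. Each list belongs to 1 library in the labels, and no −log10 q was below 1.31.

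Whole fragments at a summit and local background were solved from fold and −log10 p, taking the fold as a ratio with 1 added to both terms and p as a Poisson upper tail, with a tolerance of 0.002 on −log10 p. The fragment scale was 0.9115 for CTCF and 1 for H3K27ac; 99.9945% and 100% of peaks were solved. The solver was tested on simulated data. Which input library served as background is not given in the labels. Intervals are at 95%. Those of fragments are exact Poisson and cover counting error only. Those of shares of peaks are Wilson and treat the peaks as independent draws, which neighbouring peaks in chosen windows are not.

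Windows, genes and lists were chosen with earlier results of these data known. Positions count from 1 in hg19. Distances run from the interval edge where the gene starts, taken from the RefSeq strand and, for LIF, from general knowledge. Overlap counts from 1 base. All 9 genes were named, with the strongest peak of each list per window, the H3K27ac peak nearest the start and peaks that overlap the other list; others were named after their values were seen. Genes of the wider pathway and cell markers, which need an hg19 annotation, were not analysed here. Python 3.11.15, numpy 2.4.6, scipy 1.17.1 and pandas 2.3.3 were used.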

Additional observations from a re-analysis of the deposited data

How the results depend on the processing

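Of 23 alternatives, 15 stayed within 1.5 times the reported value and 8 did not. With 20 kb in place of 50 kb on each side there were 55 H3K27ac peaks, 21 CTCF peaks and 62743 acetylated bases, against 97, 32 and 109200, since the windows are smaller by construction. With a −log10 q of 10 or more 40 H3K27ac peaks remained in the count. Peaks at or above the median fold of their list numbered 51 for H3K27ac and 16 for CTCF. CTCF summits inside an H3K27ac peak were 4, against 9 peaks with any shared base. Genes with an H3K27ac peak on the interval numbered 8, 7 at or above the median fold and 6 at the stricter q. Taking the H3K27ac peak nearest the start edge by its boundary instead of its summit, chosen after seeing the data, gave 26.4 against 7.66 at LIF and left 6 genes at or above the median. Both measures rest on edges rounded to 1 kb, which matters at LIF and BIRC3. Start sites of the wider pathway were not run, as they need an annotation of hg19. No paired analysis was possible because each antibody has 1 library and no test was made. Depth limits the weakest peaks, which rest on 12 H3K27ac and 15 CTCF fragments.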
